A study of Felis catus with 12 samples.

Results

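10 collagen genes were described in left-ventricular tissue of cats: the interstitial fibrillar chains COL1A1, COL1A2, COL3A1, COL5A1 and COL5A2, the type VI chains COL6A1, COL6A2 and COL6A3, and the type IV chains COL4A1 and COL4A2. They were chosen by name, as interstitial, microfibrillar and basement membrane chains to be set against histological fibrosis and flow cell. All 10 of the 30785 genes of the table were found by symbol. All 10 also passed the filter on low counts, at least 10 reads in at least 3 libraries, which left 8715 genes for testing. Only the 10 libraries of cats that the study lists as sequenced counted toward this filter.

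Left-ventricular free wall collected after death was sequenced as native RNA by Oxford Nanopore, giving 12 libraries of which each stands for 1 cat. The labels group the libraries by flow cell only: PAK20671 carried cats 11, 23, 30 and 31, PAM73681 carried cats 10, 15, 35 and 36, and PAM73696 carried cats 22, 29, 37 and 38. None of the labels gives a treatment, a genotype, an age or a clinical outcome, and the study describes cats of several breeds that died with congestive heart failure, with arterial thromboembolism or without known cardiac death. The percentage of myocardial fibrosis (8 cats) and the age (9 cats) were joined by cat number from the study's cohort description, whereas the libraries labelled cats 22 and 29 are not among the sequenced cats it lists and entered the flow cell comparison only. Each flow cell carried different cats, so an effect of the flow cell and a difference between the cats loaded on it cannot be told apart.

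Collagen molecules are built from 3 chains wound into a triple helix. COL1A1 and COL1A2 together form type I collagen, the main fibre of scar and of the heart's interstitium, COL3A1 forms type III collagen, and the type V chains COL5A1 and COL5A2 co-assemble with type I and help to start and size the fibrils. In the heart these chains are made mainly by fibroblasts, as are the type VI chains, which build beaded microfibrils around cells. The type IV chains form the sheet-like network of basement membranes around capillaries and cardiomyocytes.

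Library depth ran from 789257 reads on genes in cat 23 to 2263110 in cat 11. Levels are given as normalised read counts, in which the reads of each library had been divided by its size factor. The 10 chains together took 0.0268% of the reads of a library at the lowest, 0.0897% at the median and 0.2501% at the highest. All 9 cardiomyocyte markers that define the labelled tissue were read, with a summed normalised read count between 45333 and 196979 per library, and all 9 fibroblast markers were read, with sums between 524 and 2396. In bulk tissue, fewer cells of a type and less RNA per cell cannot be told apart.

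All fibrillar and type VI chains were higher on flow cell PAK20671, whereas neither type IV chain passed the test. In the limma fit of PAK20671 against the mean of the other flow cells, 8 of 10 chains were called higher at an adjusted p under 0.05 and none was called lower. Of all genes tested, 1.84% were called higher and 3.61% were called lower. The flow cells were contrasted in this way because PAK20671 was already known to stand apart, so the p-values are not independent of that choice.

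COL1A1 and COL5A1 showed the largest differences of the 10 chains, and COL5A1 passed COL1A1 when the pseudocount was 0.5 (2.74 against 2.70 on the log2 scale). The normalised read count of COL1A1 on PAK20671 was 103 in cat 11, 69.8 in cat 23, 48.0 in cat 30 and 88.5 in cat 31. On PAM73681 it was 12.4 in cat 10, 2.72 in cat 15, 12.6 in cat 35 and 4.45 in cat 36, and on PAM73696 it was 15.7 in cat 37, 16.9 in cat 38, 15.5 in cat 29 and 25.7 in cat 22. Every PAK20671 library was thus above every other library, with a mean of 77.4 ± 23.9 (SD, n = 4) against 13.2 ± 7.25 (SD, n = 8), or 5.84-fold. The log2 difference was 2.63 ± 0.36 (SE), with an adjusted p of 0.00232 from limma. The value in cat 15 rested on 2 reads.

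COL1A2, the partner of COL1A1 in type I collagen, was also higher but did not separate the flow cells. Its normalised read count was 292, 591, 221 and 310.3 in cats 11, 23, 30 and 31 on PAK20671. It was 56.4, 13.6, 85.9 and 32.9 in cats 10, 15, 35 and 36 on PAM73681. It was 146, 196, 95.3 and 321 in cats 37, 38, 29 and 22 on PAM73696. The library labelled cat 22 lay within the range of PAK20671, and PAM73681 held the 4 lowest libraries. The log2 difference between PAK20671 and the other flow cells was 2.00 ± 0.41 (SE), with an adjusted p of 0.0122 from limma.

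COL3A1, the type III chain, had its highest mean on PAK20671 and its lowest on PAM73681, as COL1A2 did. Its normalised read count was 325, 525, 147 and 311 in cats 11, 23, 30 and 31 on PAK20671. It was 50.7, 29.95, 71.7 and 32.1 in cats 10, 15, 35 and 36 on PAM73681. It was 147, 175, 86.5 and 263 in cats 37, 38, 29 and 22 on PAM73696. The 3 libraries of PAM73696 labelled cats 37, 38 and 22 therefore reached or passed the lowest PAK20671 library, and no library of PAM73681 did. The log2 difference was 1.84 ± 0.34 (SE), with an adjusted p of 0.00857 from limma.

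The type V chains rested on few reads, with 400 reads of COL5A1 and 586 reads of COL5A2 over all 12 libraries. COL5A1 was between 30.9 and 76.6 on PAK20671, between 0.890 and 18.1 on PAM73681 and between 5.72 and 29.7 on PAM73696, and cats 15 and 36 had 1 read each. COL5A2 was between 49.7 and 81.9 on PAK20671, between 13.6 and 22.06 on PAM73681 and between 31.03 and 48.6 on PAM73696. Neither chain overlapped between PAK20671 and the other libraries. The log2 difference was 2.61 ± 0.60 (SE) for COL5A1, with an adjusted p of 0.0211, and 1.45 ± 0.24 (SE) for COL5A2, with an adjusted p of 0.00512, both from limma.

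The 3 type VI chains were all called higher. COL6A1 had normalised read counts of 265, 154, 147 and 214 in cats 11, 23, 30 and 31 on PAK20671, 80.0, 21.8, 112 and 41.8 in cats 10, 15, 35 and 36 on PAM73681, and 78.7, 81.6, 88.7 and 97.2 in cats 37, 38, 29 and 22 on PAM73696. COL6A2 ran from 151 to 286 on PAK20671 and from 25.9 to 129.6 on the other flow cells. Neither of these chains overlapped between PAK20671 and the rest. COL6A3, the largest type VI chain, was 365, 207, 99.3 and 207 in cats 11, 23, 30 and 31 and ran from 17.7 to 111 elsewhere, so that the library labelled cat 22 passed cat 30. The log2 differences were 1.46 ± 0.33 (SE) for COL6A1, 1.51 ± 0.32 (SE) for COL6A2 and 1.92 ± 0.41 (SE) for COL6A3. Their adjusted p-values from limma were 0.0193, 0.0135 and 0.0142.

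The type IV chains of the basement membrane showed smaller differences that missed the threshold. COL4A1 was 606, 298, 241 and 504 in cats 11, 23, 30 and 31 on PAK20671, 283, 103, 197 and 298 in cats 10, 15, 35 and 36 on PAM73681, and 379, 198, 269 and 346 in cats 37, 38, 29 and 22 on PAM73696. COL4A2 was 339.8, 253, 181 and 358 in cats 11, 23, 30 and 31 on PAK20671 and ran from 125 to 241 elsewhere. Both chains overlapped between the flow cells, and cats 11 and 31 gave their 2 highest values. The log2 difference was 0.66 ± 0.31 (SE) for COL4A1, with an adjusted p of 0.216, and 0.61 ± 0.24 (SE) for COL4A2, with an adjusted p of 0.140, both from limma. Whether the type IV chains differed less between flow cells than the other 8 chains was not tested.

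**Figure D1:**
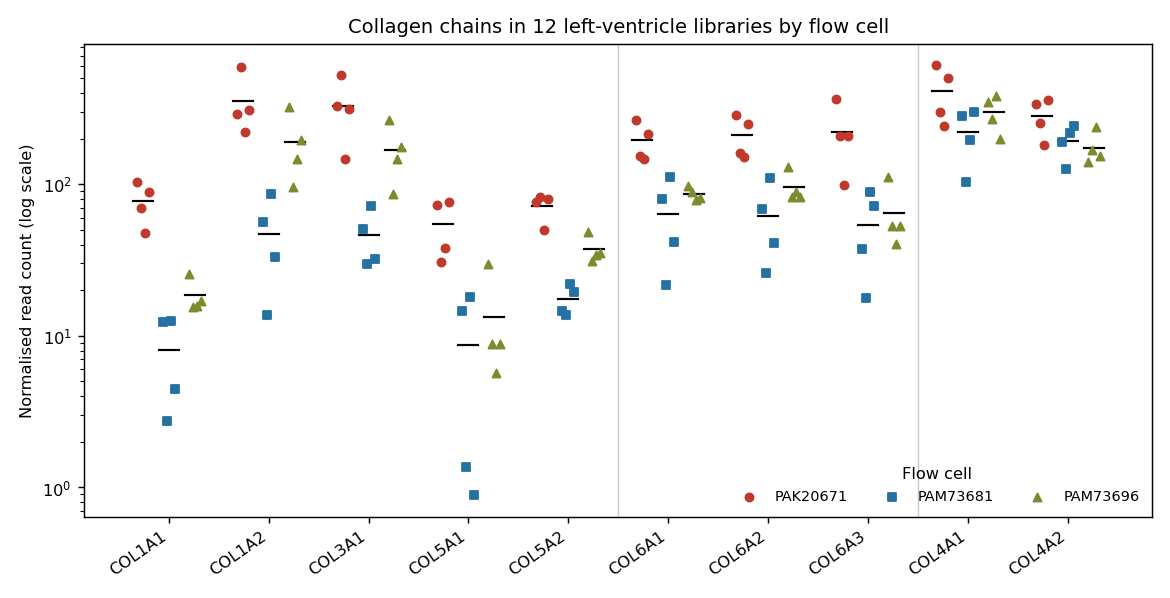
Normalised read count (log axis) of each chain in the 12 libraries, with one symbol per library, colour and shape giving the flow cell, and a short line at the mean of the 4 libraries. COL1A1, COL5A1, COL5A2, COL6A1 and COL6A2 had all 4 PAK20671 libraries above the other 8, whereas COL4A1 and COL4A2 overlapped.

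For 5 of 10 chains every PAK20671 library lay above every other library. This held for 1.72% of all genes tested. The median log2 difference of the 10 chains was 1.68, beside 0.03 over all genes tested. The 8 chains called in the contrast were also the 8 called by the limma F test over the 3 flow cells, which called 2.57% of all genes tested. The F test called 4 chains without cat 11, 31 or 15 and 5 without cat 23, 36, 37, 38 or 29. In the fit of all libraries the same 8 chains were higher on PAK20671 than on PAM73681, with log2 differences from 1.80 for COL6A1 to 3.27 for COL1A1. Against PAM73696 only COL1A1 passed, by 1.98 with an adjusted p of 0.0261, and between PAM73681 and PAM73696 none of the 10 chains did. The log2 difference of PAM73681 minus PAM73696 ran from -2.13 for COL1A2 to 0.14 for COL4A2, with adjusted p-values from 0.209 to 0.939.

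**Figure D2:**
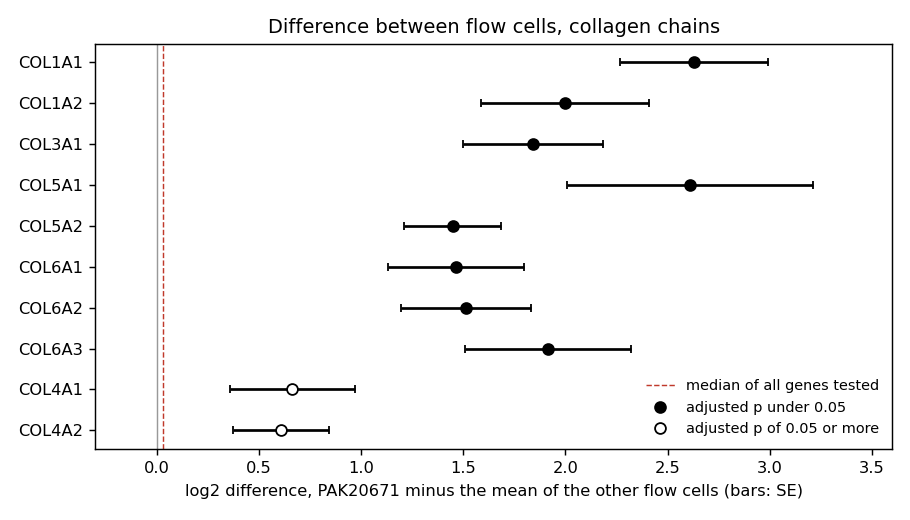
Log2 difference of each chain between PAK20671 and the mean of the other flow cells, with bars of 1 SE and filled symbols for an adjusted p under 0.05 (limma). The 8 fibrillar and type VI chains sat between 1.45 and 2.63, the type IV chains at 0.61 and 0.66, and the median of all genes at 0.03.

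The calls leaned on cats 11 and 31. Without cat 11 the contrast called 47 genes in place of 475 and 2 of the 10 chains, COL1A1 and COL5A2. Without cat 31 it called 171 genes and 5 chains, while leaving out any other single library kept 8. Leaving out cat 11 moved the log2 difference to 2.47 for COL1A1, 2.06 for COL1A2 and 1.80 for COL3A1, the last with an adjusted p of 0.0501 from limma. The same step moved COL6A3 from 1.92 to 1.62 and COL4A1 from 0.66 to 0.45. Cat 11 was also the deepest library. When the reads were not scaled for library size, the median log2 difference of all genes rose to 0.41, the contrast called 96 genes higher and 6 lower in place of 160 and 315, and the same 8 chains passed with log2 differences from 1.83 for COL5A2 to 3.01 for COL1A1.

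The make-up of the collagen reads differed between libraries as well as their amount. Reads were not corrected for transcript length, so the shares compare libraries and not chains. The fibrillar chains took from 11.5% of the reads of the 10 chains in cat 36 (95% Wilson interval 9.54 to 13.8) to 54.8% in cat 23 (52.5 to 57.1). On PAM73681 the fibrillar share was at most 22.6% (cat 35), and on PAK20671 and PAM73696 it was at least 26.4% (the library labelled cat 29). The type IV share ran from 23.2% in cat 23 (21.3 to 25.3) to 68.9% in cat 36 (65.7 to 71.8). The shares are parts of the same total, so a higher fibrillar share leaves less for the other types by arithmetic. The summed normalised read count of the type IV chains was 551 in cat 23 and 539.6 in cat 36. That of the fibrillar chains was 1299 and 89.9 in the same cats. The type VI share moved least, between 17.7% in cat 37 and 33.6% in cat 11. Intervals cover counting error only.

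**Figure D3:**
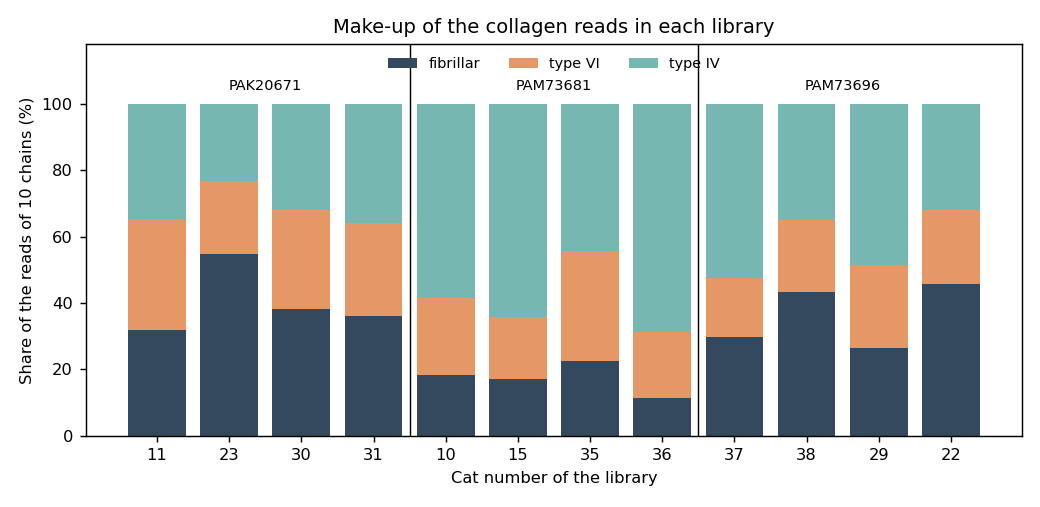
Share of the reads of the 10 chains taken by the fibrillar, type VI and type IV chains in each library, ordered by flow cell, each bar adding to 100%. The type IV share was 44.3% to 68.9% on PAM73681 and 23.2% to 35.9% on PAK20671.

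Within type I collagen the balance of the chains was not fixed. COL1A1 gave 26.2% of the COL1A1 and COL1A2 reads in cat 11 (95% Wilson interval 23.3 to 29.3) and 22.2% in cat 31 (18.8 to 26.0). It gave 10.6% in cat 23 (8.15 to 13.6), 7.96% in cat 38 (5.36 to 11.7) and 7.39% in the library labelled cat 22 (4.78 to 11.3). The share of COL1A1 was thus low in cats 23 and 38 and the library labelled cat 22. Its normalised read count in these libraries was 69.8, 16.9 and 25.7, above the 2.72 of cat 15. The ranges of the share on PAK20671 and in the other libraries overlapped. COL4A1 gave 45.2% of the type IV reads in cat 15 (37.9 to 52.8) and 71.3% in the library labelled cat 22 (66.4 to 75.7).

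The spread between libraries is one between separate cats and holds the flow cell difference. The coefficient of variation over 12 libraries was 34.2% for COL4A2 and 44.2% for COL4A1, and it lay between 59.5% for COL5A2 and 101% for COL5A1 among the other 8. Counting error alone would give 5.74% for COL4A1 and at most 19.99%, for COL5A1. Cat 15 held the lowest value of 9 chains, and for COL5A1, with 1 read in each, it was next to cat 36. COL1A2, for example, ran 43.4-fold from cat 15 to cat 23, on 10 and 440 reads, whereas COL4A2 ran 2.86-fold from cat 15 to cat 31.

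Partner chains rose and fell together across the 12 libraries. Pearson's r of log2(value + 1) was 0.98 for COL6A1 and COL6A2, 0.90 for COL1A1 and COL1A2, 0.91 for COL1A1 and COL3A1, 0.88 for COL6A1 and COL6A3, 0.79 for COL5A1 and COL5A2 and 0.78 for COL4A1 and COL4A2. Spearman's rho for the same pairs was 0.94, 0.92, 0.94, 0.90, 0.79 and 0.68. The 6 pairs are the whole family that was computed. The permutation p adjusted over them was between 6e-05 and 0.0024 for r and between 9e-05 and 0.019 for rho, and the raw p for r of COL6A1 and COL6A2, 1e-05, is the smallest that 100000 resamples can give.

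Within flow cells r stayed positive for all 6 pairs. With the mean of its flow cell taken from every value, r was 0.96 for COL6A1 and COL6A2, 0.82 for COL4A1 and COL4A2, 0.79 for COL1A1 and COL1A2, 0.70 for both COL1A1 with COL3A1 and COL6A1 with COL6A3, and 0.39 for COL5A1 and COL5A2. Permuted within flow cells, the exact p adjusted over the 6 pairs was 0.0039 for COL6A1 and COL6A2, 0.025 for the type IV pair and 0.026 for both COL1A1 pairs. It missed the threshold for COL6A1 with COL6A3, at 0.068 by the same exact test, and for COL5A1 with COL5A2, at 0.25. Without the 2 libraries farthest from the median of the first chain, r was between 0.59 for the type IV chains and 0.97 for COL6A1 and COL6A2. COL5A1 and COL5A2, the pair with the fewest reads, gave the lowest r within flow cells.

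Of 47 other tested genes of collagen biology, in the 4 lists that follow, 6 or 12.8% were called higher and none lower, beside the 1.84% called higher of all genes. Of 8 other collagen chains with enough reads, 2 were called higher on PAK20671 and none lower: COL8A1, a short network-forming chain of vessels, by 1.75 ± 0.41 (SE) on the log2 scale with an adjusted p of 0.0223 from limma, and COL15A1, a chain next to basement membranes, by 1.57 ± 0.41 (SE) with an adjusted p of 0.0347. Their median log2 difference was 0.23. Of 21 genes of collagen synthesis and cross-linking, 1 was called higher, LOXL2, a lysyl oxidase that cross-links collagen, by 2.60 ± 0.47 (SE) with an adjusted p of 0.00792, and none lower. The median of these 21 genes was 0.46, and 18 of 21 estimates were positive.

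Of 6 collagen receptors, 2 were called higher, the tyrosine kinase receptor DDR1 by 0.92 ± 0.22 (SE) and the integrin beta chain ITGB1 by 0.93 ± 0.23 (SE), with adjusted p-values of 0.0240 and 0.0301 from limma and none lower. Of 12 basement membrane partners of type IV collagen, mainly laminin chains and nidogens, 1 was called higher, SPARC, a collagen-binding glycoprotein, by 0.99 ± 0.26 (SE) with an adjusted p of 0.0371. The median log2 difference was 0.69 for the receptors and 0.11 for the basement membrane partners.

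Markers of fibroblasts, the main source of the interstitial chains, gave no call. None of 9 fibroblast markers was called in either direction, and their median log2 difference was 0.04, with 5 of 9 estimates positive. Their summed level was 557 to 2396 on PAK20671 and 524 to 1446 elsewhere. Cat 23 was highest in the summed fibroblast markers and in the summed fibrillar chains, at 2396 and 1299, and cat 15 was lowest in both, at 524 and 61.3. Cat 31 had 557 and 866, and cat 38 had 1438 and 432. None of 10 endothelial markers was called (median 0.03, summed level 511 to 912 on PAK20671 and 420.3 to 1294 elsewhere), nor any of 7 immune cell markers (median 0.60, summed level 221 to 685 and 146 to 907). The 1 adipocyte marker with enough reads, PLIN4, was not called, and the 6 adipocyte markers summed to 6.27 to 21.9 and to 8.10 to 39.7.

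Some mural cell and cardiomyocyte markers were called. Of 7 mural cell markers 2 were called higher, the smooth muscle genes CNN1 by 5.90 ± 0.77 (SE) and TAGLN by 2.63 ± 0.45 (SE) on the log2 scale, with adjusted p-values of 0.00232 and 0.00759 from limma. The other 5 were not called, among them RGS5 at 0.03 and ABCC9 at -0.03, and the median of the 7 was 0.43. The summed mural level was 675 to 1701 on PAK20671 and 331 to 658 elsewhere, so the ranges did not overlap. Of 9 cardiomyocyte markers 4 were called lower: TNNI3 by -1.64 ± 0.34 (SE), MB by -1.09 ± 0.24 (SE), PLN by -0.96 ± 0.26 (SE) and TNNC1 by -0.84 ± 0.23 (SE), with adjusted p-values of 0.0122, 0.0177, 0.0423 and 0.0454 from limma. The other 5 were not called, among them XIRP2 at 1.36 and CASQ2 at 0.06, and the median of the 9 was -0.84. Their summed level was 45333 to 66654 on PAK20671 and 64304 to 196979 elsewhere. The part of these markers in the collagen differences was not tested.

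None of the 10 chains passed the test with the percentage of myocardial fibrosis across the 8 cats that had both. The study measured this percentage as fibrotic area on trichrome-stained midventricular sections through both ventricles and the septum. The RNA came from left-ventricular free wall beside the section. Transcripts in a smaller region are thus set against deposited collagen over a wider one. Spearman's rho was between 0.00 for COL5A1 and 0.31 for COL4A1, with exact two-sided permutation p-values from 0.462 to 1.0 and an adjusted p of 1.0 for every chain. With 8 cats the smallest exact permutation p is 5e-05, which for a gene that reaches it alone becomes 0.432 after adjustment over all genes. A gene that stood alone therefore could not pass, and the missing calls say nothing on whether a relation exists. The share of all genes called was 0%, with 247 of 8715 genes at an unadjusted p under 0.05. The design could not call a gene that reached the smallest p alone. The median rho was 0.08 over the 10 chains and 0.00 over all genes tested. Pearson's r ran from -0.24 for COL6A1 to 0.16 for COL3A1, with exact permutation p-values from 0.580 to 0.994.

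The limma slope on fibrosis likewise called 0% of genes, with 230 at an unadjusted p under 0.05, and edgeR and DESeq2 called none, with 206 and 194. The slopes were from -0.08 ± 0.10 (SE) for COL6A1 to 0.07 ± 0.13 (SE) for COL3A1 on the log2 scale per percentage point of fibrosis, each smaller than its SE. The 8 cats were few, and rises or falls within these errors were not detectable.

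The cats with the most fibrosis lay at opposite ends of the fibrillar range, and on different flow cells. Cat 23 was on PAK20671, with a mean summed fibrillar level of 885, and cat 15 on PAM73681, with a mean of 128. Their contrast cannot be told apart from the flow cell difference. Cat 23, ranked 8 of 8 for fibrosis, had the highest COL1A2, COL3A1 and COL5A2 of the 12 libraries. Its type VI sum of 521 and type IV sum of 551 were below the 917 and 946 of cat 11. Cat 15, ranked 7, had the lowest value of 9 of the 10 chains. Cat 35, ranked 1, had a summed fibrillar level of 210.3, above the 61.3 of cat 15, the 89.9 of cat 36 (ranked 4) and the 149 of cat 10 (ranked 5) on the same flow cell.

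**Figure D4:**
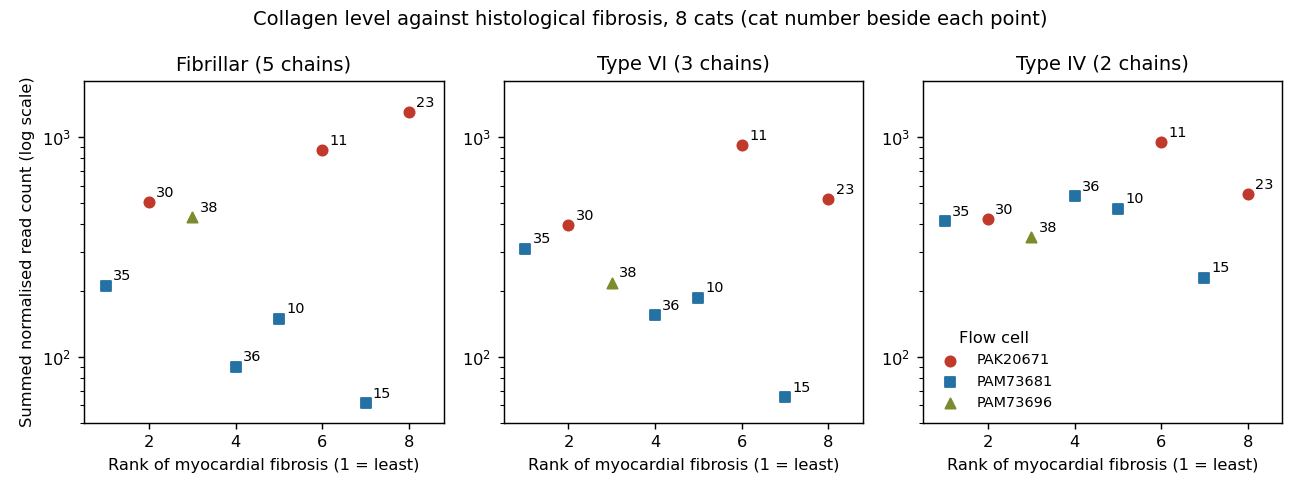
Summed normalised read count (log axis) of the fibrillar, type VI and type IV chains against the rank of myocardial fibrosis in 8 cats, with the cat number at each point and colour and shape for the flow cell. Cat 23 (rank 8) and cat 15 (rank 7) sit at 1299 and 61.3 for the fibrillar chains.

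Within PAK20671 and PAM73681 the levels took different orders. On PAK20671 the summed fibrillar level was 504 in cat 30 (rank 2), 869 in cat 11 (rank 6) and 1299 in cat 23 (rank 8), so the sum followed the rank in these 3 cats. COL1A2, COL3A1 and COL5A2 took the same order. COL1A1 and COL5A1 did not: in cats 30, 11 and 23 on PAK20671 they were 48.0, 103 and 69.8, and 37.9, 73.4 and 30.9. The type VI sum there was 397, 917 and 521 and the type IV sum 422, 946 and 551, both highest in cat 11. On PAM73681 the cats in order of rank, 35, 36, 10 and 15, had type VI sums of 309.6, 154, 186 and 65.4 and type IV sums of 413, 539.6, 472 and 229. The difference between the flow cells in this relation was not tested, and PAM73696 held 1 cat with a fibrosis value.

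The sign of rho with fibrosis depended on single cats. Without cat 15 rho was positive for all 10 chains, from 0.21 for COL5A1 to 0.79 for COL4A1. Without cat 23 it was negative for 9, from -0.39 for the 3 type VI chains to -0.07 for COL4A2, and 0.18 for COL4A1. After centring each flow cell, over 7 cats, it was negative for 9 of 10 chains, between -0.39 for COL6A3 and 0.25 for COL3A1. Without both cats 15 and 23, which lay farthest from the median fibrosis, Pearson's r was between 0.00 for COL1A2 and 0.75 for COL4A1 over 6 cats.

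**Figure D5:**
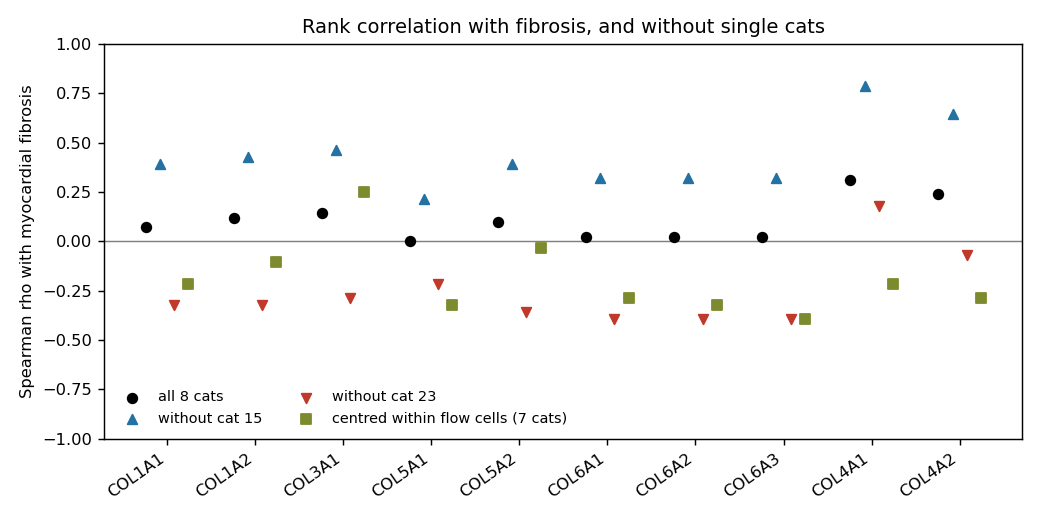
Spearman's rho of each chain with myocardial fibrosis over all 8 cats, without cat 15, without cat 23 and after centring within flow cells, with one symbol per setting. The direction turned with a single cat for most chains, from 0.43 without cat 15 to -0.32 without cat 23 for COL1A2.

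Genes of collagen biology and cell type markers are given by their rho with fibrosis, under the same limit of 8 cats. The largest rho in size were 0.43 for COL9A2 and COL8A1 and -0.38 for COL28A1 among the other collagen chains. They were 0.55 for SERPINH1, a collagen chaperone, 0.50 for P4HA2 and 0.48 for PLOD2, both collagen hydroxylases, -0.45 for the receptor ANTXR2, 0.43 for DDR1 and 0.31 for DDR2, and -0.50 for AGRN, 0.48 for LAMA2 and 0.38 in size for SPARC and LAMB1. Among markers they were -0.74 for MFAP5, -0.69 for FBLN1 and -0.48 for SCARA5 (fibroblast), -0.24, 0.21 and 0.21 for CLDN5, EMCN and ESAM (endothelial) and -0.55, 0.36 and -0.17 for PDGFRB, CNN1 and KCNJ8 (mural). They were -0.57, -0.43 and 0.40 for MRC1, CD14 and CD68 (immune), -0.24 for PLIN4 (adipocyte) and 0.62, 0.52 and -0.52 for XIRP2, CASQ2 and RYR2 (cardiomyocyte). MFAP5, a microfibril protein, was the one of these genes with an unadjusted exact permutation p under 0.05, at 0.0458. The genes named are the extremes of their lists and do not stand for them. Of 9 fibroblast markers 4 had a positive and 5 a negative rho, with a median of -0.17. Of 21 genes of collagen synthesis and cross-linking 12 were positive and 9 negative, with a median of 0.12. The median was 0.11 for endothelial, -0.12 for mural, -0.31 for immune and -0.12 for cardiomyocyte markers.

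Age gave negative coefficients for all 10 chains without a call. Over 9 cats rho was -0.60 for COL4A1 and -0.58 for COL4A2, with exact permutation p-values of 0.0968 and 0.108 and an adjusted p of 0.918 for both, and between -0.37 (COL6A3) and -0.03 (COL1A2 and COL5A1) for the others. With 9 cats the smallest exact permutation p is 5.5e-06, or 0.048 after adjustment for a gene that reaches it alone, so only a perfect order could pass by itself. The share of all genes called was 0%, with 415 at an unadjusted p under 0.05. The median rho was -0.16 over the 10 chains and -0.02 over all genes tested. After centring each flow cell, rho ran from -0.85 for COL6A3 to -0.28 for COL3A1. Under exact permutation within flow cells the smallest p-values were 0.0208 for COL6A3 and 0.0347 for COL4A2. Both had an adjusted p of 0.694. Permuting within flow cells allows far fewer orders, so a gene that stood alone could not pass this test.

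The relation with age was not steady for most chains. Leaving out 1 cat in turn kept rho negative for COL4A1 (-0.71 to -0.48), COL4A2 (-0.71 to -0.45) and COL6A3 (-0.60 to -0.21). Pearson's r was -0.52 for both type IV chains and between -0.29 and 0.00 for the other 8. Cats 36 and 15 were equally far from the median age after cat 30. Without cats 30 and 36 r was between -0.66 (COL5A1 and COL6A1) and -0.39 (COL3A1), and without cats 30 and 15 it was between -0.24 (COL4A1) and 0.39 (COL1A2).

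The genes whose levels most resembled the chains were sought among all genes tested that are not members of the 10. Across the 12 libraries, the mean standardised log2 level of the fibrillar chains was most like MAP1B (Pearson's r = 0.96), SMS (0.94), LSP1 (0.94) and G3BP1 (0.93). That of the type VI chains was most like the annexin ANXA2 (0.97), the actin gene ACTB (0.96), the actin linker MSN (0.96) and MAPRE1 (0.95). That of the type IV chains was most like the filamin gene FLNC (0.94), GALNT1 (0.94), TMEM230 (0.93), LIMS1 (0.93) and MAPK6 (0.92). These libraries share the flow cells, the genes were picked as the highest of all tested, and the values are descriptions.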

How the data were processed

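Native RNA of the left-ventricular free wall of 12 cats was sequenced with the Nanopore direct RNA method and 4 barcodes on each of 3 flow cells. According to the study's methods, reads were base-called with Guppy, filtered on quality, mapped to felCat9 with minimap2 and counted per gene with featureCounts. The deposited signal values are not whole: in each library they are whole multiples of 1 step, that is, reads divided by a size factor by the authors, a division not described in the sources used here. Reads recovered by that step were whole for 100% of values within 1e-06 reads. All sample columns were mapped (0 were not).

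Values were tested as log2(value + 1) with limma 3.58.1 in R 4.3.3, with Benjamini-Hochberg adjustment over 8715 genes and a threshold of 0.05. The model over the 3 flow cells gave the F test, the contrast of PAK20671 with the other flow cells and the pairwise differences. Fold changes are on this scale, which understates changes of low genes. Spearman's rho with fibrosis and age used exact two-sided permutation over cats (scipy 1.17.1), and chain pairs a two-sided permutation test of 100000 resamples. The recovered reads were also tested with edgeR 4.0.16 (quasi-likelihood) and DESeq2 1.42.0, with limma as the main test because the values are not counts. Further alternatives were other scalings (TMM, none), filters, pseudocounts of 0.5 and 2, barcode as a block, and leaving out each library. The code was tested on simulated data. Separate cats are the replicates.

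The 10 chains and all gene lists were chosen with earlier results of these data known. Named besides them were up to 3 called genes per direction from each list in the flow cell contrast, the 3 with the largest rho in size for fibrosis where none was called (with ties), and the 5 genes most like each chain type, except where an item is not reported here. Depth was 789257 to 2263110 reads on genes, so 3 reads, taken as the limit that a count of 0 allows, equalled a CPM of 1.33 to 3.80. No sequences, coordinates or transcript lengths were used here. Outcome groups were not compared. The labels give no outcome, and only fibrosis and age were taken from the cohort description for testing. By that description the 10 listed cats were 6 with congestive heart failure, 3 with arterial thromboembolism and 1 without known cardiac death.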

Additional observations from a re-analysis of the deposited data

Results flagged for a closer look

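Within the 4 libraries of a flow cell, the library labelled cat 22 stood far above the others on PAM73696 for 3 chains: COL1A1 at 25.7, with the other libraries between 15.5 and 16.9, COL5A1 at 29.7, with the others between 5.72 and 8.87, and COL6A2 at 129.6, with the others between 82.0 and 88.7. The gap to the next library, as a part of the whole range of the 4, was 0.862, 0.869 and 0.860. The values of COL1A1 and COL5A1 rested on few reads. COL1A1 had 19 reads in the library labelled cat 22 and 11, 23 and 14 in cats 37, 38 and 29. COL5A1 had 22 reads there and 4, 12 and 8 in the same other libraries. The 10 chains and their summed share of reads were checked on 3 flow cells, 33 groups in all, of which chance marks about 1 in 20. The library labelled cat 22 is one of the 2 that the study's list of sequenced cats does not hold, and leaving both out kept 8 of 10 chains called higher on PAK20671.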

How the results depend on the processing

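All 10 differences between PAK20671 and the other flow cells stayed positive under the alternatives that were run. Rank correlations over 8 or fewer cats, and those with age permuted within flow cells, could not call a gene that stood alone. The missing calls with fibrosis, and with age without 1 cat or within flow cells, therefore show no stability. The contrast called 102 genes without scaling, 262 without the libraries labelled cats 22 and 29, 824 with DESeq2 and, leaving out 1 library, 47 (without cat 11) to 530, against 475, with 2 to 8 chains. The F test called 64 genes without scaling, 78 and 4 chains without the libraries labelled cats 22 and 29, 352 with the barcode number as a replicate block, 664 with DESeq2 and, leaving out 1 library, 31 to 258, against 224, with 4 to 8 chains. It called 4 chains without cat 11, without cat 31 or without cat 15, and 5 without cat 23, 36, 37, 38 or 29. edgeR on the recovered reads called 465 genes in the contrast, 218 higher and 247 lower, and 221 in the F test, each with 8 chains. The barcode number does not mark a shared animal or day in the labels, and the block kept 8 chains in both tests. COL1A1 and COL5A1 had too few reads for the filter of 10 reads in every library. Leaving out libraries 22 and 29 together, cats 15 and 23 together, cat 15 beside the flow cell covariate, and permuting the chain pairs within flow cells were chosen after seeing the data. The cause of these changes was not tested.

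The sign of rho with fibrosis turned as Pearson's r to -0.041 for COL1A2, -0.24 for COL6A1, -0.19 for COL6A2, -0.078 for COL6A3, -0.14 for COL4A1 and -0.074 for COL4A2, and after centring on flow cells to -0.21 for COL1A1, -0.11 for COL1A2, -0.036 for COL5A2, -0.29 for COL6A1, -0.32 for COL6A2, -0.39 for COL6A3, -0.21 for COL4A1 and -0.29 for COL4A2. It turned with the libraries labelled cats 22 and 29 entered to -0.042 for COL4A2, and without scaling to -0.071 for COL1A1, -0.29 for COL6A1, -0.29 for COL6A2, -0.31 for COL4A1 and -0.48 for COL4A2. It turned against total fibrosis to -0.10 for COL1A1, -0.024 for COL1A2, -0.071 for COL5A2, -0.12 for COL6A1, -0.12 for COL6A2 and -0.14 for COL6A3, and without cats 15 and 23 to -0.029 for COL6A1, -0.029 for COL6A2 and -0.029 for COL6A3. The sign of the slope on fibrosis turned with DESeq2 to 0.14 for COL1A2, 0.078 for COL6A3 and 0.0014 for COL4A2, and with TMM scaling to -0.0013 for COL1A1. It turned with edgeR to 0.14 for COL1A2 and 0.076 for COL6A3, and with flow cell as a covariate to -0.067 for COL1A1 and -0.0036 for COL5A2. It turned with flow cell as a covariate and without cat 15 to 0.11 for COL1A2, 0.032 for COL6A3, 0.044 for COL4A1 and 0.031 for COL4A2, and with a pseudocount of 0.5 to -0.0045 for COL1A1. It turned without scaling to -0.075 for COL1A1, -0.015 for COL3A1 and -0.055 for COL5A2, and against total fibrosis to 0.056 for COL1A2, 0.029 for COL5A1, 0.00088 for COL6A1, 0.0040 for COL6A2, 0.024 for COL6A3, 0.0049 for COL4A1 and 0.0094 for COL4A2. It turned without cats 15 and 23 to 0.0016 for COL1A2, 0.14 for COL5A1, 0.074 for COL6A1, 0.062 for COL6A2, 0.12 for COL6A3, 0.25 for COL4A1 and 0.10 for COL4A2. The sign of rho with age turned with the libraries labelled cats 22 and 29 entered to 0.073 for COL1A2, 0.027 for COL5A1, 0.027 for COL5A2 and 0.0091 for COL6A2. Leaving out 1 cat in turn gave rho with fibrosis of -0.32 to 0.39 for COL1A1, -0.32 to 0.43 for COL1A2, -0.29 to 0.46 for COL3A1, -0.36 to 0.39 for COL5A2, -0.39 to 0.32 for COL6A1, -0.39 to 0.32 for COL6A2, -0.39 to 0.32 for COL6A3 and -0.071 to 0.64 for COL4A2. Leaving out 1 cat in turn gave rho with age of -0.50 to 0.071 for COL1A1, -0.31 to 0.26 for COL1A2, -0.48 to 0.14 for COL3A1, -0.48 to 0.19 for COL5A1, -0.31 to 0.17 for COL5A2, -0.52 to 0.048 for COL6A1 and -0.45 to 0.12 for COL6A2. Leaving out 1 cat in turn gave the slope on fibrosis of -0.21 to 0.24 for COL1A1, -0.32 to 0.25 for COL1A2, -0.15 to 0.28 for COL3A1, -0.25 to 0.14 for COL5A1, -0.11 to 0.15 for COL5A2, -0.21 to 0.081 for COL6A1, -0.19 to 0.085 for COL6A2, -0.20 to 0.16 for COL6A3, -0.076 to 0.080 for COL4A1 and -0.051 to 0.053 for COL4A2.

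Depth limits COL5A1 and COL1A1 most, with 1 and 2 reads at the lowest. All 6 chain pairs stayed positive under every alternative, between 0.39 and 0.99.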
